A study of Sus scrofa with 30 samples.

Results

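GNAS was described transcript by transcript in the mammary gland of sows across the lactation cycle. The members were all transcripts that the Sscrofa11.1 RefSeq annotation assigns to GNAS and that the expression table holds: 18 of the 24 GNAS transcripts of the annotation, among 61773 transcripts in the table. They comprised 4 curated mRNAs (accessions starting with NM), 3 curated non-coding RNAs (NR) and 11 mRNAs predicted by the NCBI annotation pipeline (XM). The other 6 (NM_001171984.2, XM_021077150.1, XM_021077154.1, XM_021077157.1, XM_021077161.1 and XM_021077165.1) were not analysed here. XM_021077156.1 was chosen by its own measured levels, which were higher after weaning than at peak lactation, so every GNAS value that involves those stages is given below as a description with no test.

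Parenchyma of the gland was collected from multiparous Danish Landrace × Yorkshire half-sib sows at 5 stages: mid-gestation (MG, day 70), late gestation (LG, day 110), early lactation (EL, day 2 postpartum), peak lactation (PL, day 10 postpartum) and the start of involution (W2, 2 days post-weaning). Each stage has 6 deposited samples, each from another sow of the same cross. The sample titles and the stage annotation of MG and EL contradict each other: the samples titled MG are annotated as early lactation and those titled EL as mid-gestation. The titles were followed, and with the annotation instead every MG value below would be an EL value and the reverse. The milk genes CSN2, CSN3 and LALBA summed to 7837 to 24033 units in the counted samples titled MG and to 43192 to 79593 units in those titled EL, and LALBA averaged 55.8 ± 44.8 and 1547 ± 1235 units (SD, n = 3). In each stage 3 of the 6 samples differed from each other by a median of at most 1.85% per transcript, and their mean lay within 0.741% of the mean of the other 3, which differed by 19.6% to 59.8%. The near-identical samples therefore carried no spread of their own, and 15 samples were counted, 3 per stage: MG 1, 3 and 6, LG 1, 3 and 4, EL 3, 4 and 6, PL 2, 3 and 6, and W2 2, 3 and 6. Values are called units and are scaled per transcript length, with each sample summing to 997480 to 1002643 units; no read counts were used, so the depth behind a single value is unknown.

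GNAS encodes the alpha subunit of the stimulatory G protein, Gsα. Hormone receptors such as β-adrenergic and parathyroid hormone receptors act through Gsα to switch on adenylyl cyclase, whose product cAMP activates protein kinase A (PKA). The mammalian locus uses several alternative first exons that are joined to shared downstream exons: besides Gsα it gives XLαs, a long form expressed from the paternal allele, NESP55, a secretory-granule protein expressed from the maternal allele, and non-coding transcripts. The pig gene lies on chromosome 17 at 58985580 to 59053022 (Sscrofa11.1), a span of 67443 bases. Which accession encodes which product was not determined here. Because the isoforms share exons, the level of an isoform is the assembler's estimate of how shared reads divide among them. An annotated long non-coding gene, LOC110257458 (chromosome 17, 59039894 to 59104395), overlaps GNAS by 13129 bases; the library kit does not mark strand, so reads of the overlap cannot be divided between them, and none of its transcripts is in the table.

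Summed over its 18 transcripts, GNAS was an abundant gene at every stage. The sum was 425, 875 and 242 units in MG 1, 3 and 6, and 511, 724 and 389 units in LG 1, 3 and 4. It was 439, 657 and 663 units in EL 3, 4 and 6, then 462, 209 and 72.6 units in PL 2, 3 and 6, and 612, 783 and 398 units in W2 2, 3 and 6. GNAS ranked between 100 and 774 among the 14907 reference genes of a sample. The stage means ordered as W2 (598 ± 193), EL (587 ± 128), LG (541 ± 170), MG (514 ± 326) and PL (248 ± 198; SD, n = 3), and every pair of neighbouring stages in this order overlapped. Scaling the samples by median ratios kept PL lowest, at 383 ± 383 units, but put EL first at 636 ± 187 units. In a bulk sample, fewer cells of a type and less RNA per cell cannot be told apart.

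Between the stages that the choice of XM_021077156.1 did not use, the gene sum did not pass the test (limma on log2(sum + 0.5), Benjamini-Hochberg over 26019 genes and assembled loci, of which 0.0115%, 0.0154% and 0.0269% passed in the 3 comparisons below). The log2 difference was 0.22 (SE 0.59, adjusted p = 1) for LG against MG, 0.14 (SE 0.59, adjusted p = 0.981) for EL against LG and 0.36 (SE 0.59, adjusted p = 0.780) for EL against MG. Single samples set these signs: the difference became -0.22 for LG against MG and -0.082 for EL against MG without MG 6, -0.00828 for LG against MG without LG 3, and -0.078 for EL against LG without LG 4.

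**Figure D1:**
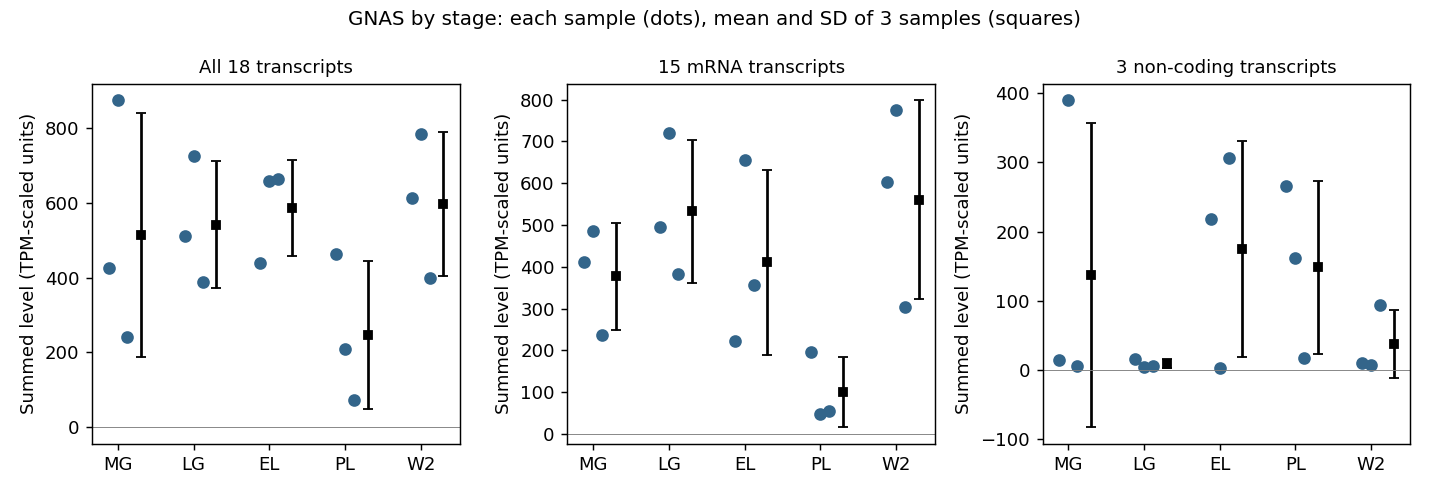
Summed GNAS level in TPM-scaled units for all 18 transcripts, the 15 mRNAs and the 3 non-coding RNAs, by stage; dots are samples, squares and bars are mean ± SD of 3 samples. The 3 PL samples lie lowest in the mRNA panel, from 47.4 to 196 units, while the non-coding sum spreads from 2.62 to 390 units with no stage apart from the rest.

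In the unscaled values the curated and predicted mRNAs together set PL apart, which the gene sum did not. They include XM_021077156.1, chosen for its W2 and PL levels, so nothing is read from this separation. PL had the lowest stage mean for 57.1% of all 26019 genes and loci, ties included. The share with every PL sample lowest was not computed. The mRNA sum was 196, 47.4 and 54.8 units in PL 2, 3 and 6, each below the lowest of the other 12 samples (222 units, EL 3). The W2 samples held 602, 776 and 304 units, so that the W2 mean (561 ± 238) was 5.64 times the PL mean (99.4 ± 83.8; SD, n = 3). The ratio was lowered by PL 2: it was 11.0 without that sample and 4.47 to 6.93 without any other PL or W2 sample. This separation depended on the scaling: under median ratio scaling PL 2 rose to 346 units and overlapped other stages, and the W2 minus PL difference went from 2.70 to 1.97 on the log2 scale. MG, LG and EL overlapped, with means of 377 ± 128, 532 ± 172 and 411 ± 222 units.

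Of the curated mRNAs, NM_001171983.2 was the most abundant GNAS transcript, with 25.5% of the mean gene sum. It was at 102, 172 and 27.4 units in MG 1, 3 and 6, at 32.9, 388 and 37.7 units in LG 1, 3 and 4, and at 82.2, 394 and 187 units in EL 3, 4 and 6. In PL 2, 3 and 6 it was at 102, 0.133 and 12.7 units, and in W2 2, 3 and 6 at 56.2, 248 and 61.6 units. Single samples stood high within LG and EL, and no stage was free of overlap with another. NM_001171985.2 (12.6% of the mean sum) was at 153, 30.9 and 29.1 units for MG, 21.2, 172 and 38.3 for LG, 17.7, 86.0 and 30.9 for EL, 47.1, 0.125 and 6.57 for PL and 75.8, 175 and 56.9 for W2, in the same sample order. NM_214312.3 (10.4%) was at 38.1, 104 and 7.57 units for MG, 15.6, 61.2 and 18.1 for LG, 52.5, 131 and 109 for EL, 13.8, 0.0811 and 13.4 for PL and 14.0, 183 and 16.3 for W2. LG 3, EL 4, PL 2 and W2 3 were the samples in which NM_001171983.2 was highest for their stage. NM_001171985.2 and NM_214312.3 were highest there too within those stages. In MG this failed: NM_001171985.2 was highest in MG 1, and NM_001171983.2 and NM_214312.3 in MG 3. In PL 3 the curated mRNAs together held 0.414 units, or 0.198% of the gene sum of that sample.

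NM_001130215.2 was the curated mRNA with the largest difference between stages before peak lactation; it held 4.00% of the mean sum and is named here after its values were seen. It was at 28.7, 19.3 and 22.0 units in MG 1, 3 and 6, at 17.5, 7.75 and 78.7 units in LG 1, 3 and 4, and at 3.64, 0.309 and 0.591 units in EL 3, 4 and 6. All 3 EL samples lay below all MG and LG samples. The log2 difference was -3.88 (SE 1.09) for EL against LG and -3.93 (SE 1.09) for EL against MG, with limma adjusted p = 0.760 and 0.464 over all 61773 transcripts. These sizes depend on the 0.5 added to each value, since EL 4 held only 0.309 units of this transcript. PL 2, 3 and 6 held 1.01, 0.0751 and 0.107 units of it and W2 2, 3 and 6 held 104, 3.16 and 12.2 units.

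Summed together, the predicted mRNAs were low in EL and PL and higher in MG, LG and W2. Their sum was 65.6, 43.5 and 29.5 units in EL 3, 4 and 6, and 31.9, 46.9 and 22.0 units in PL 2, 3 and 6. It was 89.6, 158 and 150 units in MG 1, 3 and 6, 408, 90.6 and 209 units in LG 1, 3 and 4, and 352, 167 and 157 units in W2 2, 3 and 6. Each EL and PL sample thus lay below each MG, LG and W2 sample, and this held under median ratio scaling and quantile normalization too. The sum includes XM_021077156.1, so nothing is read from its W2 and PL levels. Of all single transcripts, 8.86% lay wholly lower in EL than in LG and 13.2% than in MG. The share of gene sums with the whole division was not computed. The EL mean of the sum was 0.196 times the LG mean and 0.349 times the MG mean, with no test. The LG mean leaned on LG 1, where XM_021077164.1 alone gave 131 of the 408 units. By stage means XM_021077152.1, XM_021077155.1, XM_021077156.1, XM_021077162.1 and XM_021077166.1 followed this division, and the other predicted mRNAs did not. For example, XM_021077160.1 averaged 5.67 ± 3.40 units in PL and 3.79 ± 1.24 in MG. XM_021077164.1 averaged 9.90 ± 10.5 units in PL and 1.00 ± 0.72 in W2.

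XM_021077156.1, the transcript chosen for its W2 and PL values, held 6.25% of the mean gene sum. It was at 20.8, 78.9 and 32.1 units in MG 1, 3 and 6, at 44.6, 33.8 and 61.1 units in LG 1, 3 and 4, and at 14.7, 9.82 and 9.07 units in EL 3, 4 and 6. PL 2 and PL 6 listed it at 0 and PL 3 at 0.379 units, while W2 2, 3 and 6 held 89.2, 16.1 and 55.6 units. The stage means were 53.6 ± 36.6 in W2, 46.5 ± 13.8 in LG, 43.9 ± 30.8 in MG, 11.2 ± 3.03 in EL and 0.126 ± 0.219 in PL (SD, n = 3), with W2, LG and MG overlapping, and EL and PL separate from each other and from the rest; under median ratio scaling the lowest W2 sample (12.9 units) overlapped EL (up to 14.2 units). The W2 minus PL difference was 6.18 on the log2(value + 0.5) scale, a size that depends on the 0.5 added because of the zeros. Lower levels were seen before PL as well: EL lay below LG by a log2 difference of -1.998 (SE 0.59, limma adjusted p = 0.842) and below MG by -1.73 (SE 0.59, adjusted p = 0.549), neither past the threshold although the samples did not overlap. Its share of the gene sum was 10.2% ± 7.06 in W2, 9.71% ± 5.60 in LG, 9.06% ± 4.19 in MG and 2.07% ± 1.10 in EL.

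XM_021077155.1 (5.27% of the mean sum) was at 9.02, 51.7 and 36.9 units for MG, 41.5, 12.1 and 63.2 for LG, 24.7, 2.46 and 9.69 for EL, 0, 2.46 and 0 for PL and 88.0, 12.8 and 38.6 for W2. XM_021077162.1 (9.31%) was at 30.7, 17.5 and 69.6 units for MG, 123, 26.6 and 73.1 for LG, 18.7, 24.1 and 4.19 for EL, 0, 20.4 and 6.13 for PL and 142, 110 and 29.3 for W2. Both had their highest mean in W2 and their lowest in PL. XM_021077155.1 was listed at 0 in the same PL samples as XM_021077156.1, and their log2 levels moved together over the 15 samples (r = 0.941), whereas r was 0.722 for XM_021077162.1 and 0.825 for NM_001130215.2. These isoforms share reads, libraries and depth, so r is given as a description. The other 8 predicted mRNAs each held under 2.5% of the mean sum. XM_021077164.1, named after its values were seen, was at 131 units in LG 1, 21.1 in PL 2, 12.4 in MG 1 and 8.22 in PL 3, and between 0.115 and 1.83 units in the remaining 11 samples. XM_021077163.1 was listed at 0 in 13 of 15 samples.

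The 3 non-coding RNAs took a part of GNAS that varied widely between samples of the same stage. NR_033292.2 (9.91% of the mean sum) was at 5.47, 184 and 2.15 units in MG 1, 3 and 6, 3.98, 1.80 and 3.17 in LG 1, 3 and 4, 87.4, 1.14 and 154 in EL 3, 4 and 6, 150, 97.3 and 4.29 in PL 2, 3 and 6, and 3.39, 3.24 and 38.3 in W2 2, 3 and 6. NR_073434.1 (7.89%) was at 7.13, 159 and 1.31 units for MG, 3.04, 0.706 and 0.963 for LG, 105, 1.28 and 128 for EL, 73.0, 47.5 and 9.43 for PL and 1.42, 2.39 and 48.7 for W2. Both were high in MG 3, EL 3, EL 6, PL 2 and PL 3, NR_073434.1 also in W2 6, and both stayed under 4 units in LG. NR_033291.2, the third, reached 47.6 units in MG 3 and 43.1 units in PL 2.

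As a share of the gene sum, the non-coding RNAs made up 44.6% to 77.3% in those 5 samples, 23.5% in W2 6, 24.6% in PL 6 and 0.399% to 3.22% in the remaining 8. The stage means were 53.1% ± 26.6 in PL, 32.0% ± 27.4 in EL, 16.8% ± 24.1 in MG, 8.71% ± 12.8 in W2 and 1.77% ± 1.29 in LG (SD, n = 3), and the SD exceeded 50% of the mean in each stage. The W2 minus PL log2 differences were -1.80 for NR_033291.2, -2.32 for NR_033292.2 and -2.33 for NR_073434.1, opposite in sign to those of the 3 abundant curated mRNAs (3.33, 3.94 and 2.86; 1.38, 2.32 and 1.33 without PL 3), and all 3 non-coding RNAs overlapped between W2 and PL. EL exceeded LG by a log2 difference of 3.97 (SE 1.84, limma adjusted p = 0.881) for NR_073434.1 and 3.07 (SE 1.90, adjusted p = 0.881) for NR_033292.2.

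**Figure D2:**
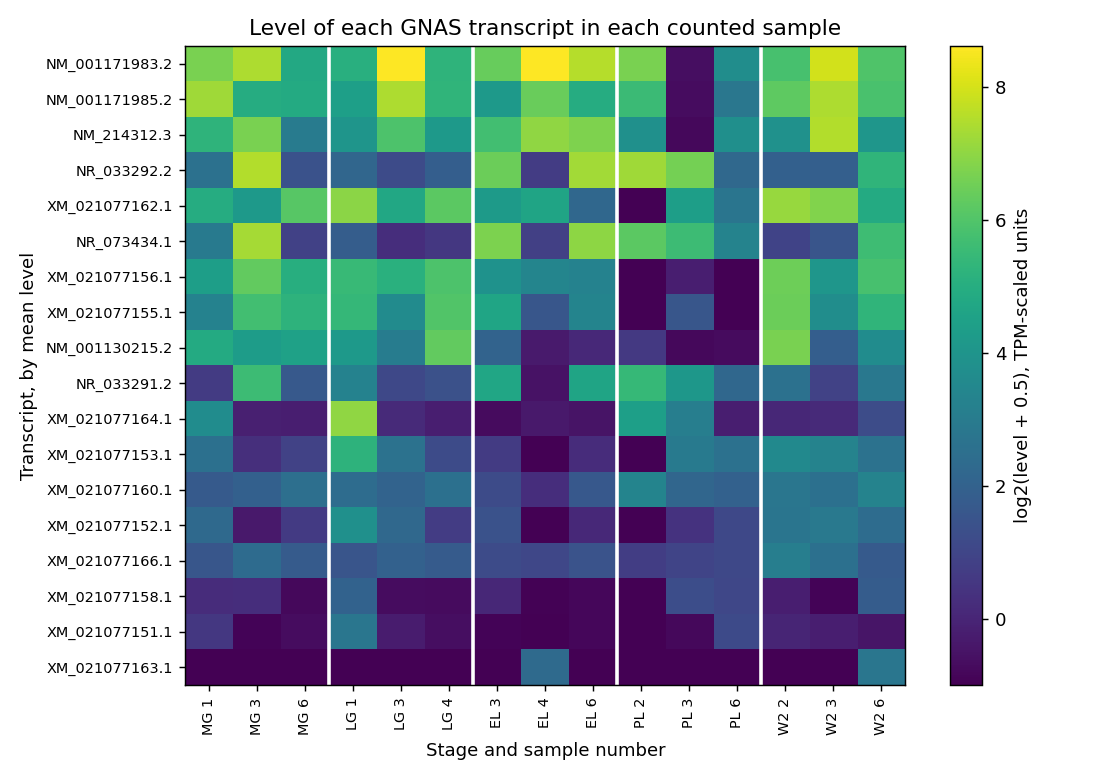
Level of each of the 18 GNAS transcripts (ordered by mean level) in each of the 15 counted samples, as log2(level + 0.5) of TPM-scaled units; white lines divide the stages. The curated mRNAs are dark in PL 3, XM_021077155.1 and XM_021077156.1 are dark throughout PL, and NR_033292.2 and NR_073434.1 are bright in MG 3, EL 3, EL 6, PL 2 and PL 3.

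Which isoform led the gene changed from sample to sample. NM_001171983.2 was the top isoform in 5 of the 15 samples, NR_033292.2 in 3 and XM_021077162.1 in 2, and 5 other transcripts led in 1 sample each. The top isoform held 15.5% to 59.9% of the gene, and 3 to 8 transcripts held at least 5%. LG 1 and W2 2 were each the highest sample for 5 of the 18 transcripts. Only NR_033292.2 and XM_021077166.1 exceeded 1 unit in all 15 samples.

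Samples of the same stage differed on average by 49.4% in the share distance of GNAS, meaning that 49.4% of the gene would have to be reassigned between isoforms to turn one sample into the other. Samples of different stages differed by 54.0%. Among 63 other genes with at least 5 transcripts and a mean sum of 100 to 1500 units, a comparison chosen after seeing the data, the medians were 25.9% within and 27.3% between stages, and 6 and 3 of them exceeded GNAS. The coefficient of variation of the gene sum was 45.7% for GNAS, against a median of 18.1% for those genes. GNAS has 18 transcripts, against a median of 7 among the 63 genes. The 7 genes with more transcripts than GNAS ran from 18.8% (MATR3) to 60.0% (NBR1) in share distance within stages. Distances at equal transcript number were not compared.

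**Figure D3:**
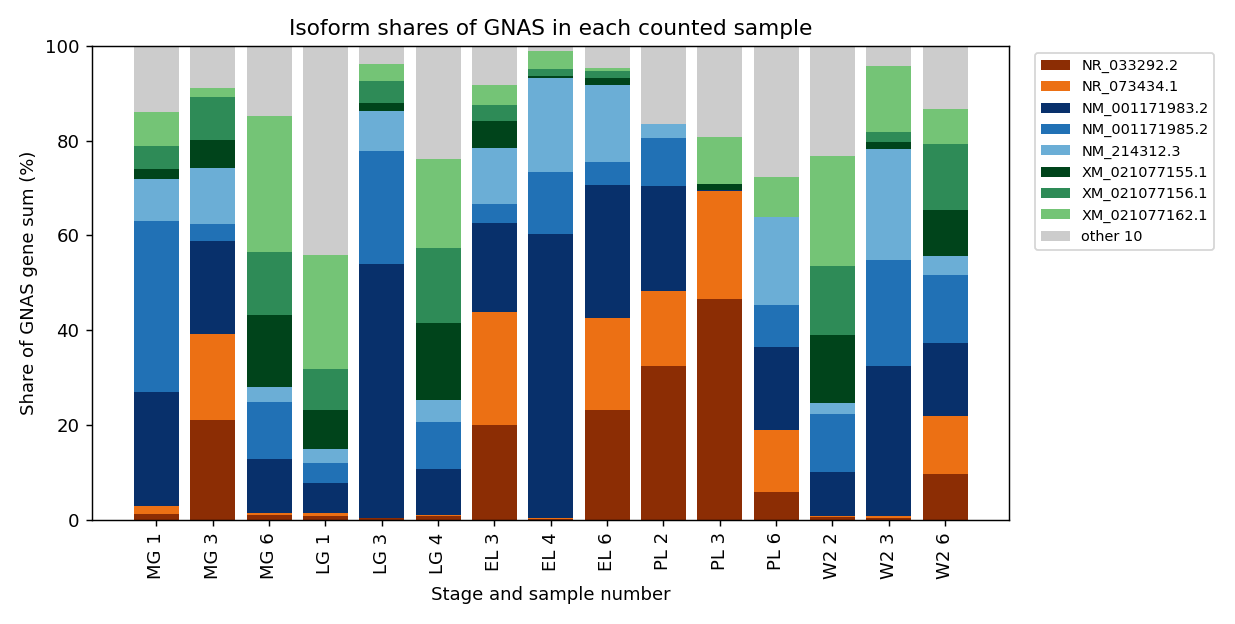
Isoform shares of the GNAS gene sum (%) in each counted sample, for the 8 transcripts with at least 5% of the mean sum and the other 10 combined. Orange and brown mark the 2 leading non-coding RNAs, blue the curated mRNAs and green the predicted mRNAs; the make-up differs within each stage, and the non-coding part is large in MG 3, EL 3, EL 6, PL 2 and PL 3.

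Tested one by one among MG, LG and EL, none of the 18 transcripts was called at limma adjusted p below 0.05 with an absolute log2 difference of at least 2. Of all 61773 transcripts, 0.0162% were called for LG against MG, 0.0178% for EL against LG and 0.0389% for EL against MG. At an unadjusted p below 0.05 the GNAS transcripts numbered 0, 5 and 3, beside 4.42%, 4.91% and 7.71% of all transcripts. Isoform shares, tested over 24616 transcripts of genes with more than 1 transcript, gave no GNAS call either (background 0.0122%, 0.0244% and 0.0203%), and 0, 4 and 2 of 18 at an unadjusted p below 0.05, beside 4.62%, 4.61% and 5.28%. In LG against MG no GNAS transcript had samples that did not overlap, where LG lay wholly above MG for 3.07% and below for 6.46% of all transcripts. EL lay wholly below LG for 8 of 18 transcripts and wholly below MG for 5 of 18, where 8.86% and 13.2% of all transcripts did, and no GNAS transcript lay wholly above in either comparison (2.12% and 2.29% of all transcripts). The median of all gene sums was itself shifted, by -0.22 in EL against LG and -0.34 in EL against MG, and median ratio scaling, which brought it to -0.07 in both, gave -1.85 and -1.42 for XM_021077156.1.

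**Figure D4:**
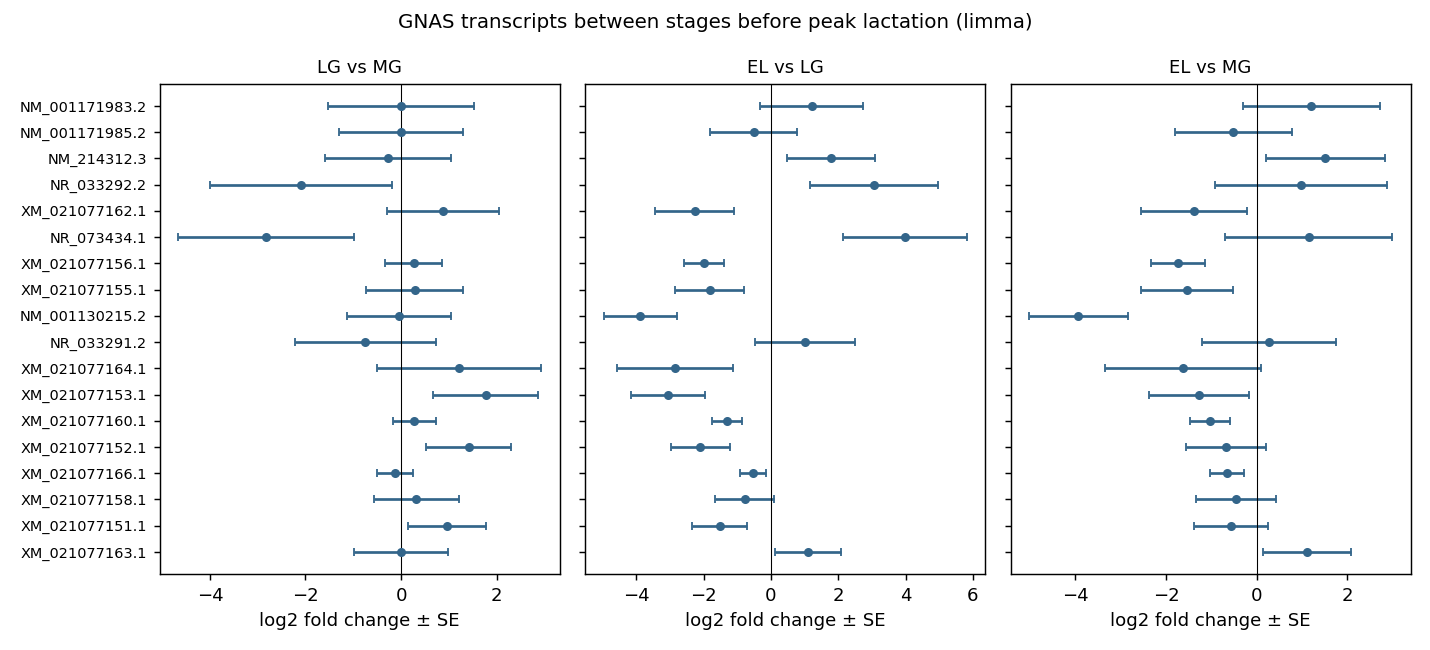
Log2 difference ± SE (limma, log2(level + 0.5)) of each GNAS transcript, ordered by mean level, for LG against MG, EL against LG and EL against MG, n = 3 samples per stage. NM_001130215.2 lies at -3.88 and -3.93 in the EL comparisons, NR_033292.2 and NR_073434.1 have the widest bars, and no transcript passed the adjusted threshold.

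Against PL, W2 lay wholly above for 8 of 18 transcripts and wholly below for none. Over all transcripts 21.5% lay wholly above and 2.71% below, and nothing is read from the GNAS count because this contrast chose the gene's leading example. The log2 differences were 6.18 for XM_021077156.1, 5.31 for XM_021077155.1, 4.39 for NM_001130215.2 and 4.24 for XM_021077162.1. All these sizes depend on the added 0.5. XM_021077155.1 was listed at 0 in PL 2 and PL 6, as was XM_021077156.1. XM_021077162.1 was at 0 in PL 2, and without that sample its difference was 2.72. NM_001130215.2 held 0.0751 and 0.107 units in PL 3 and PL 6, below the added constant. Leaving out any PL or W2 sample gave 4.65 to 6.16 for XM_021077155.1 and 3.08 to 5.49 for NM_001130215.2, lowest without W2 2. PL had the lowest stage mean for 9 of the 18 transcripts and W2 the highest for 8. XM_021077163.1, at 0 in MG, LG and PL alike, is not among the 9. Over all 26019 genes and loci, ties included, PL was lowest for 57.1%. The shares over all transcripts were not computed, and nothing is read from these counts either.

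Markers of the tissue were present at all stages: the summed level of 5 luminal epithelial genes ran from 771 to 1720 units over all samples. The 3 milk genes summed to 3047 to 5471 units in W2, 16631 to 41955 in LG and 47792 to 181227 in PL. Since each sample sums to nearly the same total, their share is taken from all other transcripts. Adipocyte markers (3 of 5 measured) summed to 253 to 388 units in PL and 444 to 732 units elsewhere, almost all of it FABP4, while LEP averaged 10.7 ± 7.90 units in PL and at most 0.414 in another stage. Fibroblast markers (5 of 5) summed to 243 to 642 units in PL and 382 to 1246 elsewhere. Leucocyte markers (4 of 5) summed to 16.1 to 310 units in PL and 11.0 to 50.7 elsewhere. CD14 alone made the high PL sums, at 180 ± 152 units against at most 7.38 on average in another stage. CD3E (4.09 ± 2.15) and CSF1R (3.53 ± 3.42) had their lowest stage mean in PL. PTPRC did not, and averaged 4.46 ± 1.19 units in PL, 2.49 ± 4.12 in LG and 5.98 ± 6.95 in MG. Myoepithelial markers (4 of 5) summed to 743 to 1888 units in PL and 857 to 1673 elsewhere, and endothelial markers (3 of 4) to 68.9 to 101 units in PL and 90.1 to 166 elsewhere; no measured marker was at 0 in all samples. Of 4 neuroendocrine markers 1 was measured, under 0.906 units in every sample. The part of any of these in the GNAS values was not tested.

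Genes beside GNAS on chromosome 17 were compared by level. Of 10 measured neighbours, 5 on each side, VAPB, APCDD1L, NPEPL1, NELFCD, CTSZ and ATP5E had their lowest stage mean in PL, as GNAS did and as did 57.1% of all 26019 genes and loci. Ties count in that share, whereas TUBB1, at 0 in both LG and PL, is not named among these neighbours. VAPB, a membrane protein of the endoplasmic reticulum, averaged 128 ± 10.1 units in MG, 58.0 ± 23.0 in PL and 130 ± 6.33 in W2 (SD, n = 3). ATP5E, a subunit of mitochondrial ATP synthase, averaged 549 ± 41.4, 279 ± 53.3 and 514 ± 27.6 units in the same stages. STX16, a syntaxin of the Golgi and the gene next but one to GNAS among those measured, was at 20.9 ± 6.31 units in PL and 23.3 ± 6.22 in W2, within its spread.

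The transcripts with a pattern most like XM_021077156.1 over the 15 samples, of 7313 outside GNAS with a mean of at least 10 units, were those of C10H1orf115 (r = 0.968), GDF10 (0.962), TRAP1 (0.958), CORO1B (0.957) and RGS5 (0.957). All had their lowest mean in PL. Picking them for likeness to a transcript chosen for lower levels in PL than in W2 favoured this, so nothing is read from it. TRAP1, a mitochondrial chaperone, averaged 75.8 ± 6.96 units in MG, 20.9 ± 3.71 in PL and 85.2 ± 7.04 in W2, and RGS5, a regulator of G protein signalling, averaged 82.5 ± 6.58, 41.7 ± 3.85 and 88.9 ± 2.73 units. Among 5733 genes, the GNAS sum was most like BHLHA15 (r = 0.851), GRHL2 (0.849), DESI1 (0.826), RASSF3 (0.825) and LOC100519934 (0.822). These values of r describe stage patterns over samples that share a scale.

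The genes around Gsα in the cAMP pathway were followed by a list of 129, of which 102 were measured, at the same threshold on gene sums. In LG against MG and in EL against LG none of the 102 was called (background 0.0115% and 0.0154%), and 2 and 3 passed at an unadjusted p below 0.05, where 4.44% and 6.18% of all genes did. For LG against MG the largest differences belonged to GNAI3, an inhibitory alpha subunit (1.94 on the log2 scale, SE 0.58, adjusted p = 0.999), AKAP13, a PKA anchor (-1.89, SE 1.35, adjusted p = 1) and GNB4, a G protein beta subunit (-1.38, SE 0.84, adjusted p = 1). GNAI3 was at 3.22, 1.94 and 2.32 units in MG 1, 3 and 6 and at 22.1, 10.5 and 5.29 units in LG 1, 3 and 4. AKAP13 was at 0.712, 12.6 and 14.2 units in MG and 0.914, 2.28 and 0.661 in LG. GNB4 was at 11.07, 12.5 and 12.8 units in MG and 0.190, 12.4 and 12.2 in LG, so that LG 1 alone set its difference, which was 0.024 without that sample. For EL against LG they belonged to PER1, a clock gene with cAMP-responsive transcription (-1.96, SE 1.03), the adenylyl cyclase ADCY7 (-1.92, SE 1.05) and the cAMP-responsive transcription factor CREB1 (1.89, SE 1.00), each at adjusted p = 0.789. PER1 was at 12.8, 21.7 and 28.8 units in LG 1, 3 and 4 and at 0, 18.6 and 15.0 in EL 3, 4 and 6. ADCY7 was at 16.1, 18.3 and 15.6 units in LG and 23.4, 0.0828 and 6.16 in EL, and CREB1 at 4.06, 0.381 and 1.35 in LG and 7.37, 6.86 and 6.02 in EL. LG and EL overlapped for PER1 and ADCY7 but not for CREB1.

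From EL to PL, 2 of the 102 genes rose and none fell, beside 0.419% of all genes higher and 0.626% lower. ADCY1, an adenylyl cyclase, was at 0.644, 0.412 and 1.15 units in EL 3, 4 and 6 and at 5.38, 11.2 and 4.34 units in PL 2, 3 and 6. Its log2 difference was 2.53 (SE 0.46, limma adjusted p = 0.00976). FOS, an immediate early gene that responds to cAMP among other signals, was at 2.21, 1.78 and 0.986 units in EL and 6.85, 16.2 and 25.4 units in PL, a log2 difference of 2.81 (SE 0.54, adjusted p = 0.0122). PL exceeded EL in every sample for both genes. The monocyte gene CD14 averaged 4.13 ± 0.898 units in EL and 180 ± 152 in PL, while the leucocyte genes PTPRC (3.97 ± 3.66 and 4.46 ± 1.19), CD3E (4.59 ± 1.03 and 4.09 ± 2.15) and CSF1R (3.91 ± 2.30 and 3.53 ± 3.42) differed by less than their spread, and the part of such cells in these differences was not tested. With only the EL and PL samples in the fit neither was called (adjusted p = 0.155 and 0.168), and without EL 6 FOS was at adjusted p = 0.0572.

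From PL to W2, 3 genes of the list rose and 1 fell, beside 4.15% of all genes higher and 1.06% lower. Under both median ratio scaling and quantile normalization this count turned to 0 higher and 3 lower (ADCY1, FOS and the receptor kinase GRK5), so the calls of the 3 higher genes below hold for the unscaled values only. PKIG, a PKA inhibitor, went from 3.59, 3.55 and 16.5 units in PL 2, 3 and 6 to 21.5, 34.5 and 43.9 units in W2 2, 3 and 6, a log2 difference of 2.31 (SE 0.47, limma adjusted p = 0.00353). AKAP1 and AKAP11, which anchor PKA, differed by 2.37 (SE 0.63, adjusted p = 0.0132) and 3.47 (SE 1.06, adjusted p = 0.0257). AKAP1 was at 2.51, 3.17 and 0 units in PL and 13.0, 6.64 and 7.41 in W2, and AKAP11 at 0.263, 0.549 and 1.70 units in PL and 5.59, 20.1 and 18.7 in W2. ADCY1 fell back to 0.377, 0.752 and 0.107 units in W2, a log2 difference of -2.99 (SE 0.46, adjusted p = 0.000751).

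The direction of this list depended on the scaling. At adjusted p below 0.05 without a fold threshold, 28 of 102 genes were higher in W2 and 2, ADCY1 and FOS, were lower, beside 30.4% and 2.48% of all genes. The median log2 difference of the list was 0.67, against 0.68 over all genes. Under median ratio scaling, which brought the median of all genes to 0.09, 5 genes were higher and 4 lower, and under quantile normalization 3 and 5. Under median ratio scaling ADCY1 was still called at -3.51 (adjusted p = 0.000393). PKIG was at 1.61 (adjusted p = 0.0253), below the fold threshold, and AKAP1 (1.78, adjusted p = 0.131) and AKAP11 (2.96, adjusted p = 0.0787) missed the p threshold. With only the PL and W2 samples in the fit, PKIG (adjusted p = 0.0788) and AKAP1 (0.122) were lost. AKAP11 also missed the threshold without PL 2 (adjusted p = 0.0862), PL 3 (0.0573), W2 3 (0.0843) or W2 6 (0.0815).

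By role, and beside 30.4% of all genes, 5 of 10 measured beta and gamma subunits were higher in W2 at adjusted p below 0.05 in the unscaled values, among them GNB1 and GNB2, which form the G protein with an alpha subunit, at 0.99 and 0.86 on the log2 scale. For PKA subunits, inhibitors and anchors it was 7 of 18, for phosphodiesterases, which break down cAMP, 4 of 13, and for chaperones and desensitisation 4 of 8, with the arrestin ARRB2 at 1.68. For receptors that couple to Gsα it was 3 of 16, including PTH1R, the parathyroid hormone receptor, at 1.04, and for alpha subunits other than Gsα 2 of 12. Adenylyl cyclases, CREB factors and coactivators, and cAMP-responsive targets had 1 of 8 each, and the single measured EPAC gene was not higher. Since 5 or 3 of the 102 genes were higher under the other scalings, these counts follow the scaling as well. The median differences of the roles with more than 1 measured gene ran from 0.36 for cAMP-responsive targets to 0.83 for chaperones and desensitisation, around the median of all genes.

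**Figure D5:**
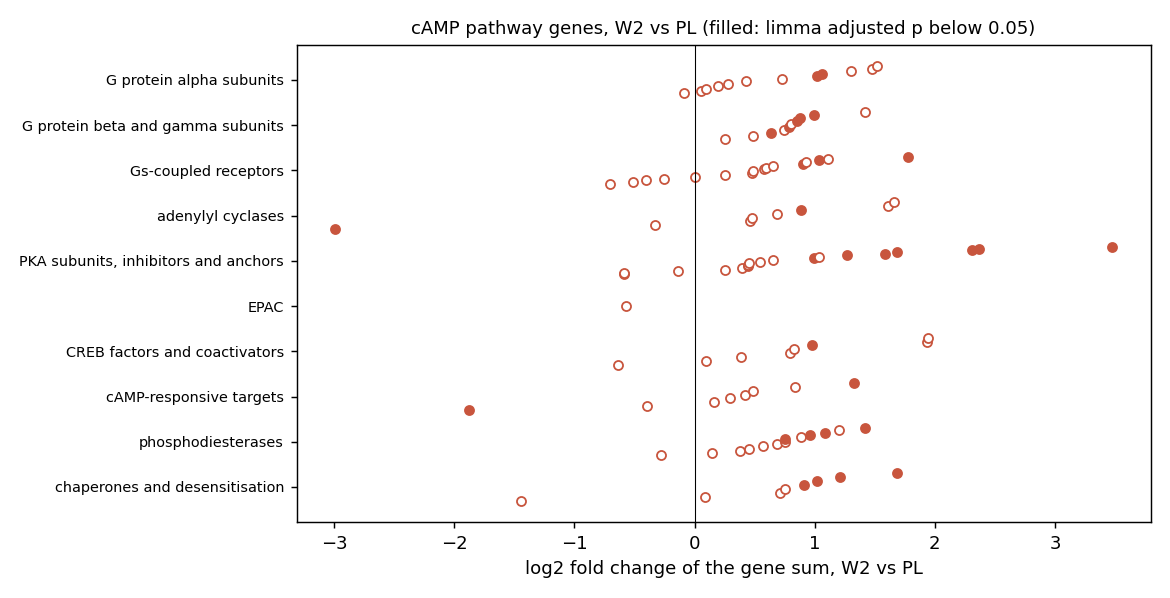
Log2 difference of the gene sum between W2 and PL (x axis) for the 102 measured cAMP pathway genes, by role; filled points had limma adjusted p below 0.05. Most points lie above 0, around the all-gene median of 0.68, and ADCY1 (-2.99) lies farthest below.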

How the data were processed

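RNA was extracted with RNAiso reagent, libraries were made with the TruSeq RNA Library Prep Kit and sequenced on an Illumina HiSeq, and the authors used FastQC, Trimmomatic, HISAT2 (Sscrofa11.1) and StringTie. The authors deposited 1 table of values called FPKM, filtered at 0.5 in at least 1 stage; its columns sum to 997480 to 1002643, so the deposited values were treated as TPM. RUVs was named, but whether it acted on these values is not given in the sources used here. No counts were used here, and the test was limma 3.58.1 (R 4.3.3) with a variance trend, fitted to log2(value + 0.5) over all 5 stages and the 15 counted samples. Transcripts were assigned to genes through the RefSeq table of the same build. Gene sums, isoform shares and transcripts were tested separately, each adjusted over its whole table. On simulated data for EL against MG, the transcript test recovered 52 of 100 planted log2 differences of 2 and 76 of 100 of 4, with 7 false calls among 61773 transcripts. Those calls used adjusted p below 0.05 without the fold threshold, and differences were planted only in transcripts with a mean of at least 10 units. The GNAS calls also needed the fold threshold, and 6 of the 18 GNAS transcripts averaged below 5 units. The planted transcripts were drawn at random with their own spread, while the GNAS transcripts had SE from 0.38 to 1.90 for EL against MG. Recovery under those conditions, or at the spread of the GNAS transcripts, was not measured. Transcripts with at least 5% of the mean gene sum and XM_021077156.1 were given sample by sample, as were the pathway genes called, or the 3 with the largest differences where none was called. The GNAS members, gene lists and tests were chosen with earlier results of these data known. P-values set a stage difference against the spread between samples, which the main fit estimated over all 5 stages together. Alternatives were other constants (0.1, 1), a filter at a mean of 1 unit, quantile and median ratio scaling, all 6 samples, the near-identical samples as 1 further sample, only the compared stages, a replicate block and leaving out each sample; the W2 minus PL values under scaling and without single samples were added after seeing the data.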

Additional observations from a re-analysis of the deposited data

How the results depend on the processing

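The depth of single values was unknown, and 3 samples per stage with overlapping isoforms limit precision. Of the counts and gene-sum differences, 104 values were labelled unchanged over the settings that kept all counted samples and 13 were labelled moved. Over those that left out 1 sample, 190 were labelled unchanged, 1 moved and 4 gene sums reversed. For gene sums, which never passed the threshold, unchanged meant the same sign and not a similar size. Without 1 sample, LG against MG went from 0.22 up to 0.71 and EL against MG from 0.36 up to 0.84, both labelled unchanged. The count for W2 against PL stayed near 4 under the other scalings, but 3 higher and 1 lower became 0 and 3. Counting all 6 samples per stage, which adds copies of a mean, gave 3, 7 and 1 GNAS transcripts called for LG against MG, EL against LG and EL against MG, 2, 11 and 4 isoform shares, and 2 cAMP genes for LG against MG. Adding the near-identical samples as 1 further sample gave 1 GNAS transcript in each EL comparison. With only the stages compared, 0 cAMP genes were called for PL against EL and 2 for W2 against PL, and a constant of 0.1 gave 8 for W2 against PL. Leaving out 1 sample gave -0.22 to 0.71 for the gene sum of LG against MG, -0.078 to 0.37 for EL against LG, -0.082 to 0.84 for EL against MG, 0 GNAS transcripts, 0 isoform shares, 0 cAMP genes in the 2 earlier comparisons, 1 to 3 for PL against EL and 3 to 6 for W2 against PL. GNB4, LG against MG, ran from -2.09 to 0.024, the latter without LG 1. The gene sum had adjusted p from 0.463 to 1 over these settings. Sample numbers did not pair the stages: deviations of same-numbered samples correlated at -0.142 to 0.167 over 19 pairs. With the replicate block 0 cAMP genes were called for PL against EL.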
